A study of Mus musculus with 12 samples.

Results

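Leukocyte nuclei of mouse liver, other than the Kupffer cells (KCs, the resident macrophages of the liver), were examined as the nuclei that the authors' table names leukocytes. The table holds 53467 nuclei, of which 20024 came from Liver samples. Of these, 365 Liver nuclei were named leukocytes, which is 1.82% of the Liver nuclei. A further 26 leukocyte nuclei came from Cell Suspension samples and 10 from Primary Hepatocytes samples. The name covers 2 of the authors' clusters, cluster 25 with 244 Liver nuclei and cluster 29 with 121.

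Single-nucleus RNA sequencing was performed on 3 sample types from each of 8 mice: intact tissue (Liver), the suspension that collagenase perfusion and spinning gave (Cell Suspension), and hepatocytes kept on collagen for 24 hours (Primary Hepatocytes). The mice were wild-type, chow-fed males of 10 to 12 weeks, labelled C57BL6J in the deposited record and C57BL/6NTac in the methods, and the labels name no transgene. They were sedated with avertin, the Liver piece was cut off after the blood had been flushed out, and the medium of Primary Hepatocytes contained serum, dexamethasone and insulin. The part of these steps in the leukocyte values was not tested. The isolation pelleted cells at 50 g, and the part of this step in the leukocyte shares of Cell Suspension was not tested. For each sample, 6000 nuclei were sorted, apart from Liver samples with 3005 and 4015, and hashtagged samples were mixed in 6 pools of 4.

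The liver holds many lymphocytes besides its macrophages. T cells carry a rearranged antigen receptor that signals through CD3, natural killer (NK) cells and other innate lymphoid cells (ILCs) act without one, and B cells display immunoglobulin and present antigen on MHC class II. The myeloid neighbours are KCs, monocytes, neutrophils and dendritic cells, the last also presenting antigen on MHC class II.

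Leukocyte nuclei were shallow, and their hashtags were weak. Summed over nuclei, a liver gave 42740 to 302524 leukocyte UMIs (median 85344.5), where a UMI is a counted RNA molecule. The per-liver median was 1949 ± 501 UMIs per leukocyte nucleus (SD, n = 8 livers), against 2471 ± 898 in Kupffer nuclei and 8306 ± 3715 in hepatocyte nuclei. It was lower than in Kupffer, endothelial, stellate and hepatocyte nuclei in 8 of 8 livers (exact paired permutation tests, two-sided, adjusted p = 0.0117 for each, adjusted over 12 technical tests). With means over nuclei in place of medians the difference from Kupffer nuclei was -325.6 UMIs and was not called (adjusted p = 0.240, exact paired permutation test). The assigned hashtag held 33.0% ± 14.1 of hashtag UMIs in leukocytes and 53.9% ± 11.8 in hepatocytes (adjusted p = 0.0117, exact paired permutation test). Its share was also low in Kupffer (35.2% ± 14.1), endothelial (34.3% ± 13.8) and stellate nuclei (34.8% ± 13.7), so weak hashtags were not particular to leukocytes. Leukocytes differed from these by -2.14, -1.26 and -1.80 percentage points (adjusted p = 0.01875, 0.01875 and 0.0117, exact paired permutation tests), calls lost with means over nuclei. In 66.6% of Liver leukocyte nuclei another sample's hashtag had more UMIs than the assigned one, against 57.0% of Kupffer and 9.45% of hepatocyte nuclei. The authors assigned samples from centred log-ratios modelled for each hashtag. A higher count of another hashtag therefore does not by itself mark a wrong assignment. The median demultiplexing margin in their table was 0.839 in leukocyte, 0.911 in Kupffer and 1 in hepatocyte nuclei of Liver. By this margin, the liver to which a leukocyte nucleus belongs is less certain than for a hepatocyte nucleus. The share of leukocyte nuclei with another hashtag higher was 0% in livers 1, 5 and 8 and 74.3% to 95.5% in the other livers. Unspliced RNA made up 70.6% ± 1.84 of leukocyte UMIs, which was below endothelial (75.1% ± 2.07) and stellate nuclei (76.4% ± 1.54, adjusted p = 0.0117 for each, exact paired permutation test). Of the 365 leukocyte nuclei, 5 had a barcode that also occurs in another pool.

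Levels are given as CPM, the UMIs of a gene per 1000000 UMIs of the summed nuclei of a type in a liver, as mean ± SD over 8 livers. Because the clusters were made from these genes, levels in leukocytes against other types are a description without a test. A count of 3 UMIs over all livers amounts to 2.95 CPM in leukocytes, 4.105 in cluster 25 and 10.5 in cluster 29.

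All 5 genes proposed as markers were examined first. Ptprc (chromosome 1, 138062861 to 138175708, GRCm38) encodes CD45, the phosphatase carried by nucleated blood cells. It stood at 1846 ± 417 CPM in leukocytes, with a lowest liver of 1357, a median of 1782 and a highest of 2499. In Kupffer nuclei it ranged from 798.0 to 1248 CPM with a median of 981.8, so that no liver overlapped between the types, and it stood at 2.71 ± 0.912 CPM in hepatocytes. A Ptprc UMI was found in 90.1% of leukocyte, 80.2% of Kupffer and 1.79% of hepatocyte nuclei, although hepatocyte nuclei were deeper. After each nucleus was thinned to 1000 UMIs, shallower ones left out (322 of 365 leukocyte, 815 of 919 Kupffer and 14490 of 14998 hepatocyte nuclei stayed), these shares were 81.7%, 62.8% and 0.269%.

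Skap1 and Ebf1 separated the clusters. Skap1 (chromosome 11, 96464593 to 96759130), an adaptor of the T cell receptor, ranged from 2031 to 5063 CPM in cluster 25 with a median of 3361. In cluster 29 it ranged from 0 to 204.3 CPM, and 94.3% of cluster 25 nuclei against 6.61% of cluster 29 nuclei held a UMI of it. Ebf1 (chromosome 11, 44617317 to 45008091), a transcription factor that commits cells to the B lineage, showed the opposite pattern. It ranged from 4114 to 7922 CPM in cluster 29 with a median of 5916, and from 0 to 30.4 CPM in cluster 25. An Ebf1 UMI was found in 98.3% of cluster 29, 2.05% of cluster 25, 2.07% of Kupffer and 2.82% of hepatocyte nuclei. These shares were taken at different depths, with medians of 1910, 2079.5, 2740 and 7695.5 UMIs per nucleus in the same order.

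Bank1 and Itgax did not mark the leukocytes as a whole. Bank1 (chromosome 3, 136053363 to 136326066), a scaffold of B cell receptor signalling, ranged from 2180 to 3499 CPM in cluster 29 and from 0 to 37.1 CPM in cluster 25. Kupffer nuclei also held it, at 452.4 to 1056 CPM, and 67.2% of them had a Bank1 UMI. Itgax (chromosome 7, 128129547 to 128150657), which encodes the dendritic cell integrin CD11c, gave 11 UMIs in 8 of 244 cluster 25 nuclei. It gave 0 UMIs in the 121 nuclei of cluster 29, which allows a share of up to 2.48% of nuclei with a UMI, and counting intervals and limits here cover counting error only. In Kupffer nuclei Itgax was found in 34 of 919, at 9.47 to 28.1 CPM by liver, and the ranges of cluster 25 and Kupffer nuclei overlapped. The plot of single genes by liver shows these levels.

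**Figure D1:**
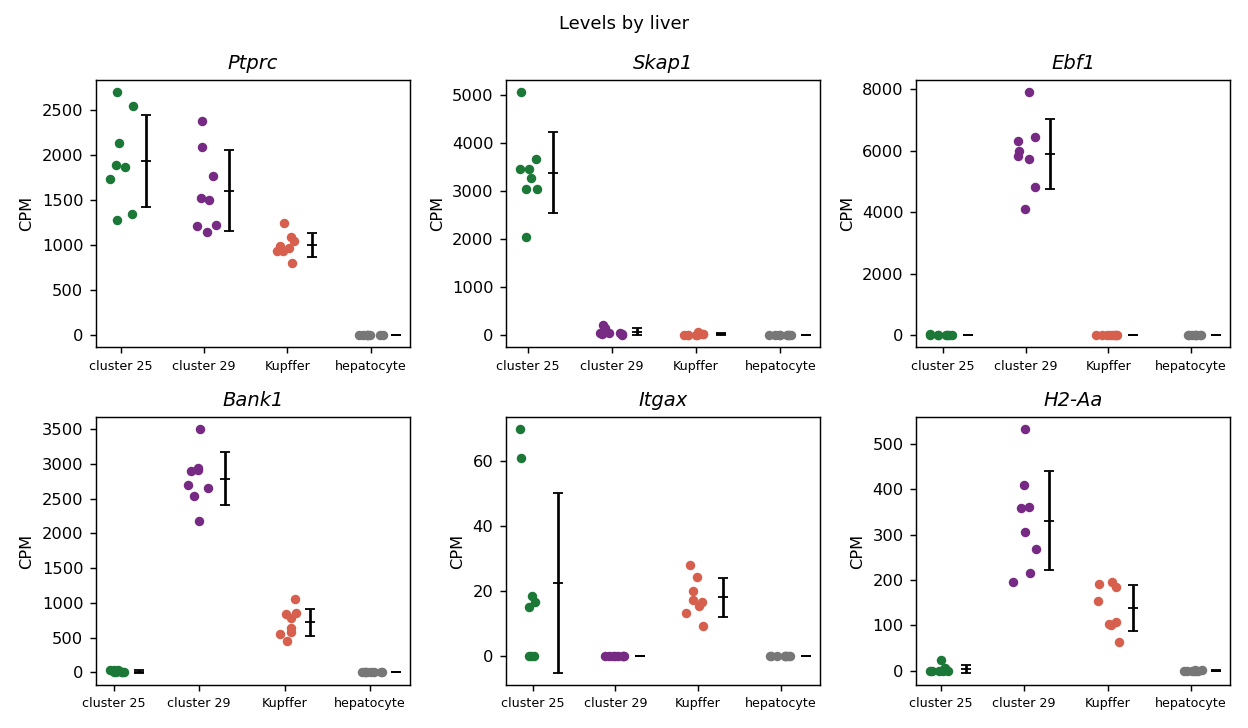
Level by liver in CPM (vertical axis) of the 5 proposed markers and the MHC class II gene H2-Aa in cluster 25 and cluster 29 leukocytes, Kupffer and hepatocyte nuclei; each point is 1 of 8 livers and the bar gives the mean and SD. Skap1 was held by cluster 25 and Ebf1 by cluster 29, Bank1 by cluster 29 and Kupffer nuclei, and Itgax reached at most 69.6 CPM in the livers shown.

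Cluster 25 carried the T cell and NK cell genes. The 18-gene T cell list summed to 8591 ± 2753 CPM in cluster 25, 205.2 ± 224 in cluster 29, 63.1 ± 42.5 in Kupffer nuclei and 30.8 ± 7.11 in hepatocytes. From spliced counts alone it summed to 4140 CPM in cluster 25. Between clusters, 14 of the 18 members stood higher in cluster 25 without overlap of any liver, and 0 the other way, where 1.6% of the 9955 genes with at least 10 UMIs did so. Themis, needed for T cell selection, stood at 971.4 ± 512 CPM, and Lef1, a transcription factor of naive T cells, at 954.7 ± 414. Cd4 was found alone in 31 of the 244 nuclei, Cd8a or Cd8b1 alone in 22, both in 0, and neither in 191, so most nuclei could not be placed by co-receptor.

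The 15-gene NK cell and ILC list summed to 1910 ± 746 CPM in cluster 25, with a lowest liver of 641.4, a median of 2196 and a highest of 2835. It stood at 37.7 ± 39.3 CPM in cluster 29 and 77.6 ± 10.5 in Kupffer nuclei. Of 14 members with at least 10 UMIs, 5 (Klrb1c, Klrd1, Klrk1, Txk and Il2rb) were higher in cluster 25 without overlap, against 1.6% of genes tested. Txk, a Tec family kinase, stood at 462.9 ± 162 CPM, and Il2rb, a receptor chain for interleukins 2 and 15, at 290.4 ± 114. Tbx21, the transcription factor T-bet, stood at 233.6 ± 171. Ncr1, the NK receptor NKp46, was found in 27 of 365 leukocyte nuclei and had 0 UMIs in Kupffer nuclei. The list was not held by NK cell-like nuclei alone. Of the sub-clusters described further on, the T cell-like 3 and 4 held Txk in 37 of 62 and 40 of 59 nuclei, and Il2rb in 8 and 37. The pooled list stood at 7552 CPM in NK cell-like sub-cluster 5, and at 1781, 1273 and 2279 CPM in sub-clusters 2, 3 and 4.

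Cluster 29 carried the B cell genes. Its 15-gene list summed to 20198 ± 2155 CPM in cluster 29, 903.3 ± 325 in cluster 25, 1041 ± 178 in Kupffer nuclei and 116.2 ± 26.2 in hepatocytes. From spliced counts alone it summed to 13007 CPM in cluster 29. Without overlap between livers, 12 of 15 members stood higher in cluster 29 and 0 in cluster 25, against 1.47% of genes tested that did so. Aff3 and Ralgps2, both on the list, were not restricted to cluster 29. Aff3 stood at 3270 ± 689 CPM there and at 632.8 ± 307 in cluster 25, and Ralgps2 at 1599 ± 386 and 124.8 ± 55.5. Pax5, the B cell identity factor, ranged from 900.8 to 1989 CPM in cluster 29 and from 0 to 16.7 in cluster 25. The plasma cell list had a median of 30.3 CPM over livers in leukocytes and of 39.9 in hepatocytes. In 1 liver it reached 236.3 CPM in leukocytes, against at most 62.4 CPM in hepatocytes, and Jchain gave 12 UMIs in a single nucleus, while Igha was at 0 UMIs.

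**Figure D2:**
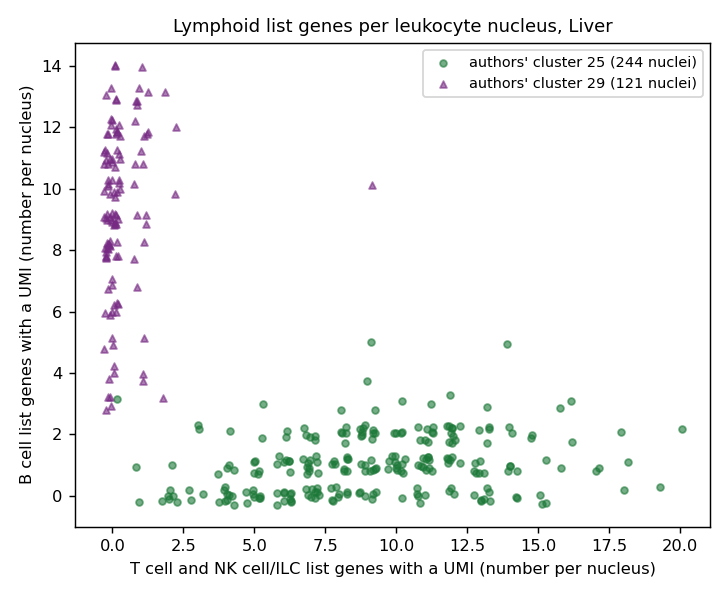
Number of B cell list genes with a UMI (vertical axis) against the number of T cell and NK cell/ILC list genes with a UMI (horizontal axis) for each Liver leukocyte nucleus, coloured by the authors' cluster and jittered. Of 121 cluster 29 nuclei, 1 held at least 3 genes of both kinds, as did 12 of 244 cluster 25 nuclei.

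MHC class II was found on the B cell side. The 10-gene list summed to 2360 ± 540 CPM in cluster 29, 62.5 ± 20.7 in cluster 25 and 889.2 ± 283 in Kupffer nuclei. Of its 9 members with at least 10 UMIs, 8 were higher in cluster 29 than in cluster 25 without overlap, against 1.47% of genes tested. Cd74, the invariant chain, stood at 773.2 ± 483 CPM in cluster 29, 8.32 ± 12.7 in cluster 25 and 311.0 ± 109 in Kupffer nuclei. H2-Aa stood at 330.9 ± 110, 4.38 ± 8.45 and 138.0 ± 50.2 CPM in the same order. H2-Ob, a subunit of the MHC class II chaperone H2-O, stood at 303.9 ± 141 CPM in cluster 29, higher than in cluster 25 without overlap, and at 9.04 ± 5.16 in Kupffer nuclei.

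Genes that carry the antigen receptor signal were held by both clusters, with different members. As a whole the list was not particular to leukocytes. It summed to 5610 ± 1101 CPM in cluster 25, 7401 ± 1014 in cluster 29, 5687 ± 268 in Kupffer nuclei and 2107 ± 122 in endothelial nuclei. Of 22 genes on this list, 7 were higher in cluster 29 without overlap (Btk, Blnk, Syk, Plcg2, Lyn, Pik3ap1 and Cd22) and 7 in cluster 25 (among them Lck, Zap70, Fyn, Prkcq, Cd247 and Pik3cd), where 1.47% and 1.6% of genes tested did so. The kinase Lyn stood at 1652 ± 221 CPM in cluster 29, 108.6 ± 59.7 in cluster 25 and 2358 ± 341 in Kupffer nuclei. Prkcq, protein kinase C theta, stood at 983.8 ± 295 CPM in cluster 25 and 22.5 ± 25.3 in cluster 29. Fyn was not specific to leukocytes, at 1025 ± 311 CPM in cluster 25 and a mean of 1171 in endothelial nuclei.

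Of 21 lineage transcription factors with at least 10 UMIs, Pax5, Ebf1, Bcl11a and Bach2 were higher in cluster 29 without overlap, and Bcl11b, Tcf7, Lef1 and Gata3 in cluster 25, against 1.47% and 1.6% of genes tested. Against Kupffer nuclei, 12 of 23 members with at least 10 UMIs stood higher in leukocytes without overlap and 3 lower (Spi1, Irf8 and Batf3, factors of myeloid cells), where 3.41% and 5.33% of 14308 genes did so. Bach2 stood at 4697 ± 1731 CPM in cluster 29 but was also present in hepatocytes, at 465.3 ± 186. Satb1, a chromatin organiser of lymphocytes, stood at 1100 ± 462 CPM in cluster 25, 626.5 ± 198 in cluster 29 and 20.0 ± 16.3 in Kupffer nuclei. Of the 12 pan-leukocyte genes, 0 were free of overlap between the clusters in each direction, which is near the 1.47% and 1.6% of genes tested. Against Kupffer nuclei, 6 of them were higher in leukocytes without overlap and 1, Dock8, was lower, where 3.41% and 5.33% of genes did so. Dock2, an activator of Rac in lymphocyte migration, stood at 1889 ± 330 against 815.9 ± 117 CPM and Arhgap15, a Rac inhibitor, at 3803 ± 682 against 1332 ± 325.

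Of 18 homing and adhesion genes with at least 10 UMIs, Itgal, Itga1, Ccr2 and Selplg were higher in cluster 25 than in cluster 29 without overlap and 0 in the other direction, against 1.6% and 1.47% of genes tested. Itga4, the alpha 4 integrin, stood at 573.8 ± 130 CPM in cluster 25 and 681.3 ± 126 in cluster 29. Itga1 was shared with endothelial nuclei, at 305.7 ± 156 CPM in cluster 25 and a mean of 835.2 in endothelial nuclei.

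Across all genes of at least 100 CPM in leukocytes (2385 genes), those with the highest ratio to any other type were mostly T cell genes. The ratio divides by the highest mean among the other types, or by the level of 3 UMIs in the shallowest type (4.27 CPM in biliary nuclei) where that is higher. The first was Gm2682 (chromosome 15, 60120540 to 60187408), an unnamed gene model, at 2098 CPM in leukocytes, 317.0 times its mean of 6.62 CPM in Kupffer nuclei. It was followed by Skap1 with a ratio of 156.7, and Ikzf3 with 119.4 and Bcl11b with 116.3 were also among the first. Gimap3, Pax5, Lef1, Txk and Themis had ratios of 99.9 to 71.3. Ikzf3, the lymphoid factor Aiolos, was held by both clusters, at 464.1 to 737.4 CPM in cluster 25 and 491.4 to 2471 CPM in cluster 29.

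The genes of KCs were low in the leukocyte nuclei. The Kupffer list summed to 123.9 ± 106 CPM in leukocytes and 7715 ± 1687 in Kupffer nuclei, and 12 of its 13 genes were higher in Kupffer nuclei without overlap, where 5.33% of 14308 genes did so. Without the 2 smallest of the sub-clusters described further on, a setting chosen after seeing the data, the list summed to 77.5 CPM in leukocytes, and from spliced counts alone to 248.3 CPM. Clec4f, the KC lectin, stood at 16.3 ± 27.0 CPM in leukocytes and 1580 ± 345 in Kupffer nuclei. Lair1, an inhibitory collagen receptor, stood at 13.4 ± 12.9 CPM in leukocytes and 501.3 ± 90.7 in Kupffer nuclei. The plasmacytoid dendritic cell gene Siglech and the dendritic cell factor Batf3 gave 0 UMIs in leukocytes, which allows up to 0.822% of the 365 nuclei. The neutrophil genes S100a8, S100a9, Ly6g, Retnlg, Csf3r, Camp and Ltf also gave 0 UMIs, as did Mcpt8, Ms4a2, Fcer1a and Mcpt4 of mast cells and basophils. These lists were not empty. The neutrophil list summed to 10.6 ± 7.51 CPM in leukocytes (9 nuclei), 103.0 in Kupffer nuclei and 1.91 in hepatocytes. The mast cell and basophil list stood at 22.2 ± 13.5 CPM (20 nuclei), 14.1 and 50.5 in the same order. The plasmacytoid dendritic cell list stood at 128.0 ± 43.2, 681.4 and 22.9 CPM. Of the conventional dendritic cell list, 5 of 10 tested members were higher in cluster 29 than in cluster 25 without overlap (1.47% of genes tested did so), the MHC class II genes H2-Ab1, H2-Aa and H2-Eb1, their activator Ciita, and Wdfy4. Wdfy4, a gene of antigen cross-presentation, stood in cluster 29 at 779.9 ± 150 CPM against 582.9 ± 204 in Kupffer nuclei. The monocyte list did not set leukocytes apart, and 0 of the 365 nuclei were called monocyte by the rule given with the lineage calls. It summed to 522.0 ± 122 CPM in leukocytes, where Chil3, Treml4 and Ace gave 0 UMIs, 587.4 ± 74.5 in Kupffer nuclei and 873.2 ± 273 in hepatocytes, where Fn1 made up 849.3 ± 274. Ccr2, the monocyte chemokine receptor, stood at 95.5 ± 77.3 CPM in cluster 25 and at a mean of 36.9 CPM in Kupffer nuclei, and gave 0 UMIs in cluster 29.

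**Figure D3:**
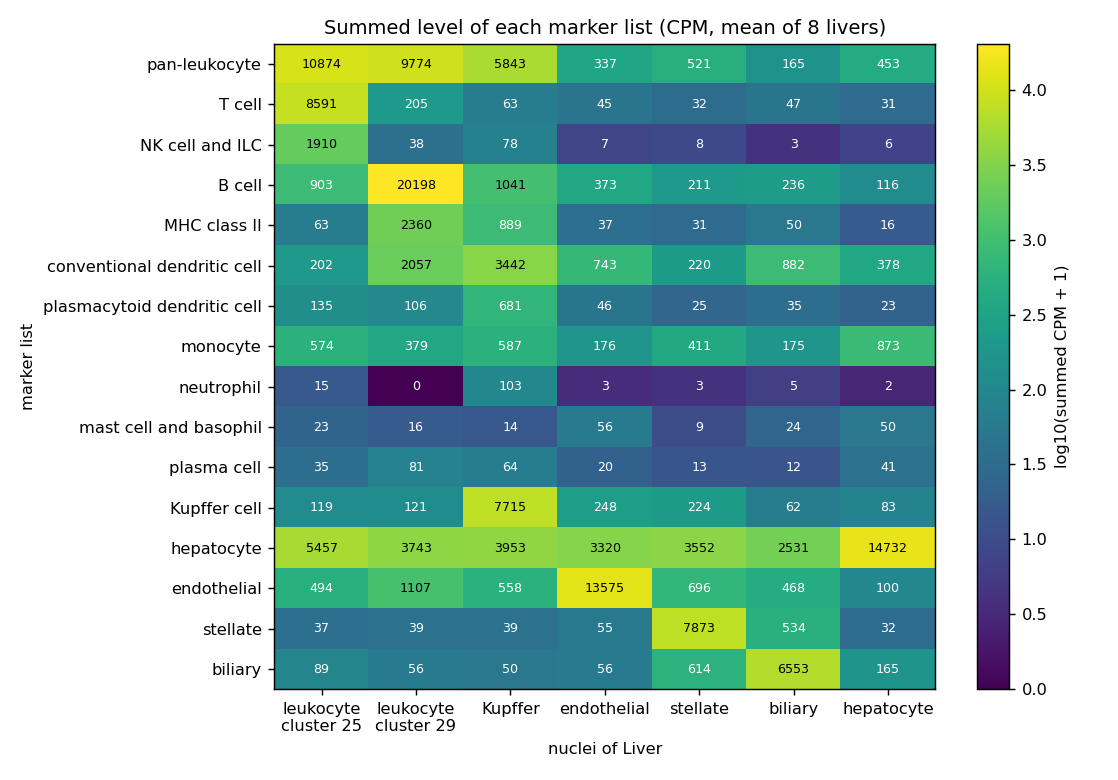
Summed level of each marker list (rows, CPM, mean of 8 livers) in the nucleus types of Liver (columns), coloured on a log10 scale. The T cell list reached 8591 CPM in cluster 25 and the B cell list 20198 CPM in cluster 29, whereas the Kupffer and dendritic cell lists were highest in Kupffer nuclei; hepatocyte genes were found in each type.

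RNA of hepatocyte genes was present in the leukocytes. The 10-gene hepatocyte list summed to 5062 ± 1274 CPM in leukocytes, 3953 ± 911 in Kupffer nuclei, 3320 ± 903 in endothelial nuclei and 14732 ± 1507 in hepatocytes. Without the 2 smallest sub-clusters it summed to 3170 ± 568.1 CPM in the other 334 leukocyte nuclei, so that few nuclei carried much of the value. Sub-cluster 6, left out here, had this list at 11666 CPM. No such nuclei were left out of the Kupffer value, so the trimmed value cannot be set against it. From spliced counts of all leukocyte nuclei the list summed to 8780 CPM. Alb, serum albumin, was found in 80.5% of leukocyte nuclei at 1334 ± 303 CPM, and Cps1, the first enzyme of the urea cycle, in 71.5% at 1341 ± 567. The endothelial list stood at 664.7 ± 248 CPM in leukocytes with Pecam1 as its main member, at 353.2 ± 107. The stellate list reached 37.7 ± 27.7 CPM, with 6 of 10 genes at 0 UMIs, the biliary list 81.5 ± 49.1 CPM, the mesothelial list 18.2 ± 8.56 CPM and the erythroid list 12.01 ± 9.46 CPM.

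Each leukocyte nucleus was assigned to the list with most detected genes, with at least 2 required. Of the 365 nuclei, 188 (51.5%) were called T cell, 122 (33.4%) B cell, 36 (9.86%) NK cell or ILC and 2 Kupffer cell, and 17 stayed uncalled. All 121 nuclei of cluster 29 were called B cell. By liver, T cell calls made up 51.0% ± 8.65, B cell calls 34.1% ± 7.47 and NK cell or ILC calls 9.09% ± 6.21 (SD, n = 8). As a background for this rule, 70.4% of hepatocyte nuclei stayed uncalled, 3.01% were called B cell and 1.17% T cell, at a median of 7695.5 UMIs per nucleus against 2043 in leukocytes. Of endothelial nuclei, 8.62% were called B cell. Among the 919 Kupffer nuclei, 743 were called Kupffer cell, 83 conventional dendritic cell, 17 monocyte, 11 plasmacytoid dendritic cell, 7 B cell and 2 neutrophil, 56 stayed uncalled, and 0 were called T cell or NK cell. Of the 83 nuclei with dendritic cell calls, 9 held a Clec4f UMI, 27 an Itgax UMI and 37 a UMI of Flt3, the dendritic cell growth factor receptor. By comparison, 692 of the 743 with Kupffer calls held Clec4f, 3 held Itgax and 3 held Flt3. Clec9a was found in 39 of the 83 and 340 of the 743, and Batf3 in 17 and 172, so neither set the dendritic cell calls apart. Wdfy4 was found in 65 and 425, H2-Aa in 52 and 170, and Xcr1 in 9 and 2. These genes are on the lists that made the calls, so the contrasts follow from the rule and are a description. The same rule called 11.6% of hepatocyte, 21.7% of endothelial and 9.03% of Kupffer nuclei conventional dendritic cell, shares that were taken at different depths. After thinning to 1000 UMIs, at least 2 genes of the dendritic cell list were found in 51.9% of Kupffer, 6.71% of endothelial and 0.883% of hepatocyte nuclei. This share was 52.9% in cluster 29, where all nuclei were called B cell, and 1.38% in cluster 25.

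Clustering of the leukocyte nuclei alone gave 7 sub-clusters, whose leading genes are a description, since they shaped the clusters. Sub-cluster 1 (111 nuclei, 109 from cluster 29) was B cell-like, led by Fcer2a, the low-affinity IgE receptor, and its pooled B cell list stood at 23141 CPM. Sub-cluster 3 (62 nuclei) was T cell-like and held Cd8b1 in 16 and Cd8a in 11 nuclei, Il7r, the interleukin 7 receptor, in 48, and Tcf7 in 40. Sub-cluster 4 (59 nuclei) was T cell-like and led by cell division genes, with Top2a in 13 nuclei, Kif11 in 10 and Mki67 in 9. In sub-cluster 4 Zbtb16, the factor PLZF of innate-like T cells, was found in 49 nuclei and Itga1 in 40. Sub-cluster 5 (30 nuclei) was NK cell-like, with Ncr1 in 22 nuclei, the receptor Klra8 in 14 and the protease Gzma in 11, and 25 of its nuclei were called NK cell or ILC.

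Sub-cluster 2 (72 nuclei) was left unnamed. Its median of 1389.5 UMIs was 25.5% of its samples' median, and a sub-cluster as shallow as this was named only with a listed marker among its 10 leading genes, which sub-cluster 5 had and sub-cluster 2 lacked. It was led by Bmp7 and Nebl, in 11 and 8 nuclei, and held Icos, a co-stimulatory receptor of T cells, in 15, and 57 of its nuclei were called T cell. Its pooled T cell list stood at 9325 CPM, against 1781 CPM for the NK cell list and 779.1 CPM for the B cell list. Sub-clusters 6 and 7 were unnamed as well. Sub-cluster 6 (24 nuclei) had a median of 9806.5 UMIs and a hepatocyte list at 11666 CPM, against 2154 to 4317 CPM in sub-clusters 1 to 5. Sub-cluster 7 (7 nuclei) was led by Vsig4, Cdh5 and Cd5l among others, with a B cell list at 6960 CPM, an endothelial list at 4391 CPM, a Kupffer list at 2895 CPM and a T cell list at 2602 CPM, and 3 of its nuclei were called B cell. Whether the nuclei of sub-clusters 6 and 7 hold RNA of more than 1 cell was not tested, and without them T cell calls made up 50.9%, B cell calls 34.4% and NK cell or ILC calls 10.2%.

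**Figure D4:**
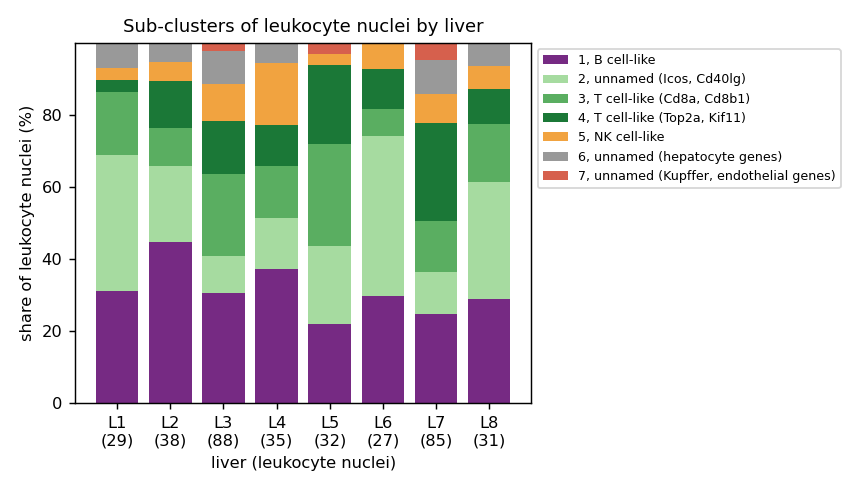
Share of leukocyte nuclei in each of 7 sub-clusters (vertical axis, percent) for each of the 8 livers, with the number of leukocyte nuclei in parentheses. Sub-cluster 1, which was B cell-like, took 21.9% to 44.7% of a liver's leukocyte nuclei and sub-cluster 5, which was NK cell-like, 3.13% to 17.1%.

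Leukocytes made up 0.230% ± 0.326 of nuclei in Cell Suspension (SD, n = 8), and their mean share in Liver was 8.25 times as high, with an SD of 0.942 percentage points (n = 8). Without the Cell Suspension sample of mouse 7, the mean share in Cell Suspension was 0.117% and that in Liver was 16.2 times as high. In Liver the share ranged from 0.920% to 3.30% with a median of 1.70%, and in Cell Suspension from 0% to 1.02% with a median of 0.140%. It was lower in Cell Suspension in 8 of 8 mice (exact paired permutation test, adjusted p = 0.00781, the smallest p that 8 pairs can give). The exact permutation test without pairing gave p = 0.000466 (two-sided, adjusted p = 0.000466 over 3 shares). The groups overlapped through the Cell Suspension sample of mouse 7, whose 9 leukocytes among 880 nuclei gave 1.02% (exact 95% binomial interval 0.469% to 1.93%), and the other Cell Suspension samples stayed at or below 0.187%. In the Cell Suspension sample of mouse 2, 0 of 1402 nuclei were leukocytes, which allows a share of up to 0.214% by the limit of 3 counts and up to 0.263% by the exact 95% binomial interval.

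Shares of nuclei other than hepatocytes and cultured cells showed the same order, with 7.51% ± 2.36 in Liver and 1.82% ± 1.52 in Cell Suspension. Of leukocyte and Kupffer nuclei together, leukocytes made up 28.4% ± 6.96 in Liver and 8.55% ± 6.86 in Cell Suspension. Both measures were lower in Cell Suspension in 8 of 8 mice (exact paired permutation tests, adjusted p = 0.00781 for each). Exact permutation tests without pairing gave an adjusted p of 0.000466 for each. Of the 26 Cell Suspension leukocytes 12 were called T cell, 9 B cell and 3 NK cell or ILC. Of the 10 in Primary Hepatocytes 6 were called T cell and 4 B cell, while the paper describes leukocytes as absent from these cultures. Another sample's hashtag had more UMIs than the assigned one in 11 of the 26 and 3 of the 10 nuclei. Whether these nuclei were assigned to the wrong sample was not tested.

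The pool of mouse 7 also held the Liver samples 3, 7 and 8, and in 9 of 9 of its Cell Suspension leukocytes a Liver hashtag of that pool had more UMIs than the assigned one. The same held for 73.8% of the hepatocyte nuclei of that sample, so it was not particular to leukocytes, and its part in the share was not tested. Within each of the 4 pools with both sample types, leukocytes made up 2.51% of Liver and 1.02% of Cell Suspension nuclei in pool 1, 2.03% and 0.104% in pool 2, 1.15% and 0.0728% in pool 5, and 1.27% and 0.176% in pool 6. In the pools without a Liver sample, 6 of 4742 Cell Suspension nuclei (0.127%) and 5 of 11859 Primary Hepatocytes nuclei (0.0422%) were leukocytes. Without the sample of mouse 7 the difference in share was -1.78 percentage points, against -1.67 with it, and with the 3 Cell Suspension samples of pools without Liver alone it was also -1.78 (adjusted p = 0.0182, exact permutation test). Among nuclei with at least their sample's median hashtag share, 25 Liver and 4 Cell Suspension leukocytes were left, at mean shares of 0.264% and 0.0636% of nuclei (difference -0.200 percentage points, adjusted p = 0.0337, exact permutation test).

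**Figure D5:**
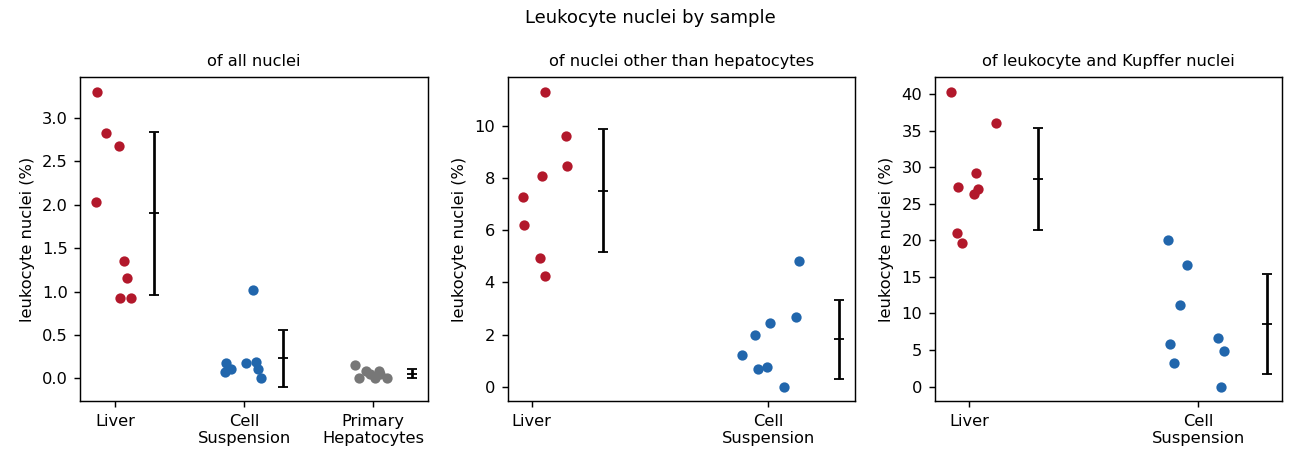
Leukocyte nuclei by sample (vertical axis, percent) as a share of all nuclei, of nuclei other than hepatocytes and cultured cells, and of leukocyte and Kupffer nuclei; each point is 1 of 8 samples of a type and the bar gives the mean and SD. Of all nuclei, Liver samples lay between 0.920% and 3.30% and Cell Suspension samples between 0% and 1.02%.

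Across the 8 livers, the leukocyte share of nuclei was correlated with the Kupffer share (Pearson r = 0.78, exact permutation p = 0.0152, adjusted p = 0.0303 over 2 relations; Spearman rho = 0.86, exact permutation p = 0.0107). The call was lost without liver 1, 4, 6 or 8 (adjusted p = 0.0579 to 0.116, exact permutation). Without the 2 livers farthest from the median Kupffer share r was 0.56, and among nuclei other than hepatocytes and cultured cells r was 0.28 (adjusted p = 0.893, exact permutation), where the relation did not hold. Within the 2 pools of 3 livers each, with values centred on the pool mean, r was 0.90 over 6 livers (adjusted p = 0.0556, exact permutation within pools, whose 36 arrangements allow no unadjusted p under 0.0278), a value chosen after seeing the data. The other 2 pools with a liver held 1 each. The leukocyte share had no detectable relation to the number of nuclei of a sample (r = -0.35, adjusted p = 0.386; rho = -0.43, p = 0.299, exact permutation).

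Expression in leukocytes was compared between 8 Liver samples and the 3 Cell Suspension samples with at least 3 leukocyte nuclei, which held 18 nuclei in all. The samples of mice 1, 6 and 7 held 4, 3 and 6 nuclei of cluster 25 and 0, 2 and 3 of cluster 29. In Liver, cluster 29 made up 33.7% ± 7.54 of leukocytes. The 9 nuclei of mouse 7 are those in which a Liver hashtag had more UMIs than the assigned one. The part of make-up and hashtags in the gene results was not tested. Of 10162 genes tested with edgeR, 7 (0.0689%) were higher and 8 (0.0787%) lower in Cell Suspension at an adjusted p under 0.05. In simulated counts of this design edgeR called more unchanged genes than this threshold allows, so the calls may hold more false ones than it states. With the mouse as a replicate block 0 genes were called in either direction and 365 had an unadjusted p under 0.05. Scaling by RLE in place of TMM shifted the median log2 change over the genes tested by 0.47, from -0.70 to -0.23, and left 8 genes higher and 0 lower, so the lower calls depend on the scaling.

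The stress-responsive transcription factors Jun, Egr1 and Atf3 were 3 of the 7 genes called higher, and were the only called genes of the 13 tested on the immediate early and heat shock list. Jun stood at 12.5 to 70.2 CPM in Liver leukocytes and at 0, 1550 and 235.1 CPM in the Cell Suspension samples of mice 1, 6 and 7 (log2 fold change 3.96, adjusted p = 3.91e-05 in edgeR). Egr1 stood at 12.5 to 93.6 CPM in Liver and at 170.6, 811.9 and 167.9 CPM in the same 3 samples (log2 fold change 2.87, adjusted p = 0.0193 in edgeR). Atf3 stood at 0 to 34.9 CPM in Liver and at 0, 885.7 and 33.6 CPM (log2 fold change 4.12, adjusted p = 0.0198 in edgeR). Hepatocyte nuclei moved in the same direction, with Jun at a mean of 51.5 CPM in Liver and 1658 in Cell Suspension, Egr1 at 32.8 and 1000.4, and Atf3 at 6.98 and 884.9. The part of hepatocyte RNA in the leukocyte values was not tested. Fos, with a log2 fold change of 3.84, did not pass (adjusted p = 0.100), nor did Ier2, with 2.64 (adjusted p = 0.145). Both passed with DESeq2 (adjusted p = 0.0247 and 0.0261) and, in edgeR, with each sample of at least 1 leukocyte nucleus (adjusted p = 0.00567 and 0.00291). Without the Cell Suspension sample of mouse 6, Jun and Egr1 lost their calls (adjusted p = 0.497 and 0.551) and Atf3 did not reach the count minimum. The call of Atf3 was also lost with DESeq2 (log2 fold change 4.62, adjusted p = 0.479) and from unspliced counts (3.68, adjusted p = 0.101 in edgeR). That of Egr1 was lost with the filterByExpr minimum (log2 fold change 3.43, adjusted p = 0.330 in edgeR).

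The remaining genes called higher, 1700128A07Rik, Fmnl2, Nrg4 and Gm26754, were highest in the sample of mouse 1, which held 4 leukocyte nuclei. Fmnl2, an actin-nucleating formin, stood at 2388 CPM there and at 73.8 and 134.3 CPM in the samples of mice 6 and 7, and without the sample of mouse 1 its log2 fold change was 0.63 (adjusted p = 0.809 in edgeR). With DESeq2 and with filterByExpr the call of Fmnl2 was lost as well (adjusted p = 0.250 and 0.364), at log2 fold changes of 3.72 and 3.57 against 3.01 with all 3 samples in edgeR. Among genes called lower, Bcl2, the survival factor, stood at 985.6 to 2316 CPM in Liver and at 170.6, 516.7 and 1142 CPM in Cell Suspension (log2 fold change -1.72, adjusted p = 0.0419 in edgeR), a call lost with RLE, filterByExpr, DESeq2 and unspliced counts and without the sample of mouse 1 or 6 (adjusted p = 0.101 to 0.453). Atp8a2 (log2 fold change -2.21) was also called lower, from 12 Cell Suspension UMIs, with the call lost in the same settings (adjusted p = 0.0705 to 0.380), while Galnt7 rested on 1 UMI and Cpne1 on 0.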

How the data were processed

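The authors deposited UMI counts of spliced, unspliced and ambiguous RNA, and counts of hashtags, by barcode, made with Salmon Alevin and Alevin-fry on a GRCm38 transcriptome. The authors' table names the nuclei kept after removal of doublets, their sample, cluster and cell type, and gives the hashtag margin as a fraction, which was not used in a test. One hashtag, CD2, was taken for Cell Suspension of mouse 2 by its group column. The 3 states were added and summed per sample and type, and no nucleus was removed.

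Shares were compared by exact permutation over samples without pairing, and in a paired test as an alternative. Pairs are the samples of 1 mouse, by mouse number as the study describes. Leukocyte sums were tested with edgeR 4.0.16 (TMM, quasi-likelihood, genes with at least 10 counts, Benjamini-Hochberg threshold 0.05), with DESeq2 1.42.0 as an alternative; in simulated counts of this design edgeR called more unchanged genes than the threshold allows. Sub-clusters used scanpy 1.11.5 (1000 variable genes, 15 components, 15 neighbours, Leiden resolution 0.8). No doublet caller was run. Gene positions come from GENCODE M21.

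Lists, members and tests were chosen with earlier results of these data known. Named genes are the proposed markers, up to 4 list members with the highest leukocyte level (2 for other cell types), the 10 with the highest ratio to the next type, leading genes of sub-clusters and the called genes with the smallest p. Further genes named to spell out a count, and Cd4, Cd8a, Zbtb16, Flt3 and the like in sub-clusters and Kupffer nuclei, were chosen after their values were seen. The unit of n is the mouse, and p-values rest on the variation between these samples. The share tests without pairing and the main edgeR fit took account of neither the mouse nor the pool.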

Additional observations from a re-analysis of the deposited data

Results flagged for a closer look

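Single samples stood apart from the other 7 of their group in 12 of 46 groups of 8 samples looked at, by the gap to the nearest sample as a share of the range (above 0.526, a limit that chance passes in about 1 in 20 groups). Many of these groups share nuclei and are not independent. The Cell Suspension sample of mouse 7 had 1.02% leukocytes, against 0% to 0.187% in the others (gap 0.817 of the range). Liver 2 had 50.0% of its leukocytes in cluster 29 and 50.0% B cell calls, against 25.9% to 37.1% in the other livers (0.533 for both).

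Liver 5 had the highest T cell list, at 10471 CPM in its leukocytes against 4525 to 6621 (0.647) and at 14974 CPM in cluster 25 against 5773 to 8664 (0.686). Its Themis level was 1557 CPM against 483.5 to 649.8 (0.845), and its Lef1 level 1313 CPM against 401.7 to 826.4 (0.534). The MHC class II list in liver 5 was lowest in cluster 25, at 16.7 CPM against 52.2 to 80.3 (0.559), and highest in cluster 29, at 3538 CPM against 1839 to 2553 (0.580). The value in cluster 25 lay near the floor of counting, since Itgax alone also stood at 16.7 CPM in those nuclei. Liver 5 also had the lowest hepatocyte list in its leukocytes, at 2696 CPM against 4235 to 6674 in the other livers, and, like liver 4, it was the only Liver sample of its pool. The part of these values in its T cell level was not tested.

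Liver 7 had the highest Kupffer list in leukocytes, at 370.0 CPM against 50.9 to 162.0 (0.652), also in cluster 25 alone, at 445.0 CPM against 36.6 to 139.3 (0.749). Its T cell list in cluster 29 stood at 741.0 CPM against 65.2 to 204.3 (0.794). Of the 7 nuclei in the sub-cluster led by Kupffer and endothelial genes, 4 came from liver 7. In Primary Hepatocytes, which entered no test, 10 nuclei were named leukocytes.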

How the results depend on the processing

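The difference in leukocyte share between Liver and Cell Suspension kept its direction and its call in each alternative, but not its size: among nuclei with at least the median hashtag share, with 25 Liver and 4 Cell Suspension leukocytes, the 3 differences were -0.200, -7.68 and -29.0 percentage points (adjusted p = 0.0337, 0.0312 and 0.0312, exact permutation). In the paired test, with the mouse as a replicate block, the 3 differences were -1.67, -5.70 and -19.8 percentage points (adjusted p = 0.00781 each, exact permutation, the smallest p that 8 pairs can give), and without 1 mouse or the Cell Suspension sample of mouse 7 they ranged from -1.80 to -1.46, -6.12 to -5.42 and -21.0 to -19.2.

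With means over nuclei in place of medians, leukocytes differed from Kupffer nuclei by -325.6 UMIs (adjusted p = 0.240, exact permutation), and the hashtag share from Kupffer, endothelial and stellate nuclei by -1.38, -0.489 and -1.04 percentage points, none of them called (adjusted p = 0.0804, 0.338 and 0.152). By medians these hashtag differences were -2.14, -1.26 and -1.80 percentage points, and each was called (adjusted p = 0.01875, 0.01875 and 0.0117, exact paired permutation). Without 1 liver, the unspliced share differed from Kupffer nuclei by -0.646 to 0.135 percentage points, reversed without liver 5 (0.135) or 8 (0.0254), and from hepatocytes by -2.44 to -1.27, called without liver 2. The relation of leukocyte to Kupffer share gave r = 0.28 among nuclei other than hepatocytes, r = 0.90 centred within pools (adjusted p = 0.0556, exact permutation), and without 1 liver r = 0.73 to 0.90, with the call lost without liver 1, 4, 6 or 8.

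From spliced counts alone, the B cell list in cluster 29 was 13007 CPM, the T cell and NK cell lists in cluster 25 were 4140 and 2711 CPM, and the Kupffer and hepatocyte lists in leukocytes 248.3 and 8780 CPM. Without the 2 smallest sub-clusters the hepatocyte list was 3170 CPM. In nuclei below the median hepatocyte list share, the B cell list was 23004 and the T cell list 12041 CPM. Shares of calls moved by less than the SD between livers in each alternative, and resolution 0.4 or 1.2, seed 1 and all sample types kept the number of sub-clusters within 1.5 times.

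The numbers of genes higher and lower in Cell Suspension leukocytes (7 and 8) were 0 and 0 with the replicate block, 0 and 0 with filterByExpr (218 of 2598 genes with an unadjusted p under 0.05), 8 and 0 with RLE and with DESeq2, 12 and 9 with no filter, 17 and 300 with each sample of at least 1 leukocyte nucleus, and 4 and 2 from unspliced counts. Without 1 Cell Suspension sample they ranged from 3 to 11 and 0 to 21: 3 and 0 without mouse 1, 4 and 1 without mouse 6, 11 and 21 without mouse 7. 1700128A07Rik ranged from -0.35, reversed without mouse 1, to 3.72 (log2 fold change). Among the alternatives, those without the Cell Suspension sample of mouse 7 in the shares, with pools without Liver alone, with centring within pools, and without the 2 smallest sub-clusters were chosen after seeing the data. The causes were not tested. The 18 Cell Suspension nuclei limit this comparison.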
